A study of Mus musculus with 8 samples.

Results

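The miR-99/100 and miR-125 families were followed in sperm small RNA through 5 mature miRNAs, mmu-miR-99a-5p, mmu-miR-99b-5p, mmu-miR-100-5p, mmu-miR-125a-5p and mmu-miR-125b-5p. They were taken by name from the miRNA rows of the deposited count table, and all 5 were present among 651 rows with mature miRNA names and 1010917 rows in all. The libraries came from spermatozoa of C57BL/6J mice, 4 labelled Control-Cessation and 4 labelled EtOH-Cessation, where EtOH is ethanol and the series title speaks of a period of cessation after alcohol. Neither age nor any allele is given, and the series' design text names the caput of the epididymis where the sample labels name spermatozoa. The comparison asks whether these miRNAs differed between sperm of ethanol-treated and control animals after that period. The labels do not say whether a library came from 1 animal or from a pool, so p-values cover only the spread among these 8 samples, which may be technical.

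Animal miRNAs guide Argonaute proteins to messenger RNAs through the seed, bases 2 to 8 counted from the 5′ end, and lower the output of the targets. The miR-125 family is the vertebrate counterpart of the worm timing miRNA lin-4 and is known for repressing Lin28, which in turn blocks let-7 maturation. The miR-99/100 family is known for targets in the mTOR and insulin-like growth factor pathways. In the genome both families sit in mixed clusters with a let-7 gene, and members of a cluster can come from 1 long primary transcript. Sperm carry miRNAs from the testis and also take up small RNA during passage through the epididymis.

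The mature sequences show which members a targeting or mapping step can tell apart. They are RefSeq sequences on build GRCm38.p6, written 5′ to 3′, with the seed in capitals.
miR-99a-5p: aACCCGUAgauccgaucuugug
miR-100-5p: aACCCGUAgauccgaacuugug
miR-99b-5p: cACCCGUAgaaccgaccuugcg
miR-125b-5p: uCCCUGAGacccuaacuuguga
miR-125a-5p: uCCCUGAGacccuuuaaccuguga

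The first 3 share the seed ACCCGUA and the last 2 the seed CCCUGAG. miR-99a-5p and miR-100-5p are both 22 bases long and differ at 1 base, U16A (the miR-99a base, the position from the 5′ end, then the miR-100 base). miR-99a-5p and miR-99b-5p differ at 4 bases, A1C, U11A, U16C and U21C, of which none lies in the seed. miR-125a-5p is 24 bases long and miR-125b-5p 22, and they share their first 13 bases and their last 5. How the authors assigned reads that match several miRNAs is not given in the sources used here. The split between miR-99a-5p and miR-100-5p depends on how mismatches were handled. Of 1679 mature mouse sequences in the RefSeq table, no other has the miR-99/100 seed. Outside the family, miR-351-5p, miR-6367 and miR-6394 share the miR-125 seed. The last 2 were not analysed here, and miR-351-5p had 4 counts over all 8 libraries, too few to test.

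On GRCm38.p6 the 5 miRNAs come from 6 hairpin genes in 3 clusters, all on the plus strand. miR-99a-5p (chr16:77598940-77598961) lies with let-7c-1 and 1 copy of miR-125b-5p (chr16:77646279-77646300), and both members lie in introns of all 4 annotated transcripts of Mir99ahg, a noncoding host gene, that span them (GENCODE vM21). miR-100-5p (chr9:41531437-41531458) lies with let-7a-2 and the other copy of miR-125b-5p (chr9:41581940-41581961), both in introns of the noncoding transcripts 3110039I08Rik and Gm49317. This copy of miR-125b-5p is also exonic in the 1 spanning transcript of Gm28119, on the same strand. On the opposite strand, miR-100-5p overlaps an exon of the noncoding Gm48742 and miR-99a-5p an intron of the protein-coding Gm11146. miR-99b-5p (chr17:17830194-17830215), let-7e and miR-125a-5p (chr17:17830817-17830840) are packed into 647 bases, against 47361 and 50525 bases for the clusters on chromosomes 16 and 9. This compact cluster lies in Spaca6, a protein-coding gene needed for sperm-egg fusion. miR-99b-5p is intronic in both spanning Spaca6 transcripts, while miR-125a-5p is intronic in 2 and exonic in 1 of 3. The 2 copies of miR-125b-5p have the same sequence, so its counts cannot be divided between chromosomes 9 and 16. The build used for the count table is not given in the sources used here.

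Total counts ran from 4210785 to 4768713 in control libraries and from 3116421 to 6805989 in EtOH libraries, with the lowest in EtOH replicate 2. Mature miRNAs took 16.6% to 27.6% of the counts in controls and 6.88% to 10.1% in EtOH libraries. CPM here are counts scaled to a common library size with edgeR's trimmed mean of M values (TMM). The sperm transcripts Prm1, Prm2, Tnp1, Tnp2, Odf1 and Akap4 were above 0 in every library, with exons summing to 245 to 327 CPM in controls and 122 to 217 in EtOH libraries. Exons of the epididymal genes Crisp1, Adam7, Cd52, Lcn5, Lcn8 and Lcn9 summed to 366 to 534 CPM in controls and 649 to 14947 in EtOH libraries, with the highest in EtOH replicate 2. These sums came almost wholly from Crisp1, Adam7 and Cd52. Lcn5, Lcn8 and Lcn9 were at 0 in 2, 3 and 4 libraries and at 1.77 CPM or below in every library, and Lcn8 was at 0 in EtOH replicate 2. The part of the sperm and epididymal transcripts in the results on the 5 miRNAs was not tested. In these libraries fewer cells of a type and less RNA per cell cannot be told apart.

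All 5 miRNAs had lower mean levels in the EtOH libraries, from 2.31-fold lower for miR-99a-5p to 5.53-fold lower for miR-99b-5p, and none passed the adjusted threshold of 0.05 in edgeR's quasi-likelihood test over all 10234 tested features. The background share passing that test with a lower level was 0.137%. At an unadjusted p below 0.05 all 5 were lower, against 9.15% of all tested features and 66.7% of the 228 tested miRNA features, so most miRNAs gave the same result. The adjusted p-values lay just above the threshold, between 0.0525 and 0.0900. DESeq2 put all 5 past its adjusted threshold as lower, with a background of 4.05% of all features, and limma voom put 3 of 5, with a background of 2.34%. Of the 228 tested miRNA features, DESeq2 called 117 lower and limma voom 74, so many other miRNAs passed too. The median log2 fold change of the 5 was -2.26, beside -1.56 over the tested miRNA features and -0.09 over all tested features. That gap to the miRNA median depended on control replicate 2. Without it the log2 fold changes of the 5 ran from -1.10 to -1.59, beside a miRNA median of -1.24.

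miR-125b-5p was by far the most abundant member. Its level was 4578, 11707, 6206 and 5031 CPM in control replicates 1 to 4, and 2475, 2895, 2502 and 1728 CPM in EtOH replicates 1 to 4. Every EtOH library lay below every control, and control replicate 2 stood above the other 3 controls. The means were 6880 ± 3290 and 2400 ± 487 CPM (SD, n = 4 each; log2 fold change -1.52, SE 0.40, edgeR quasi-likelihood adjusted p = 0.0525). By mean CPM it ranked 8 among 651 mature miRNA rows in controls and 7 in EtOH libraries, so its place in the miRNA pool hardly moved.

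miR-125a-5p, which has the same seed and is expressed from the compact chromosome 17 cluster, was far less abundant. It had 106, 907, 343 and 138 CPM in control replicates 1 to 4, against 55.5, 103, 66.0 and 52.2 CPM in EtOH replicates 1 to 4. The highest EtOH library and the lowest control lay almost together, at 103 and 106 CPM, while control replicate 2 was the highest of all. The means were 373 ± 371 and 69.3 ± 23.5 CPM (SD, n = 4 each; log2 fold change -2.43, SE 0.63, edgeR adjusted p = 0.0525). Without control replicate 2 the control mean was 196 ± 129 CPM (SD, n = 3), and the ratio of control to EtOH fell from 5.39 to 2.82.

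Among the miR-99/100 members, miR-99a-5p was the most abundant. It had 130, 270, 225 and 152 CPM in control replicates 1 to 4, against 78.2, 120, 93.2 and 45.1 CPM in EtOH replicates 1 to 4. The groups did not overlap on this scale, with control replicate 1 and EtOH replicate 2 the nearest libraries. The means were 194 ± 64.8 and 84.1 ± 31.2 CPM (SD, n = 4 each; log2 fold change -1.21, SE 0.41, edgeR adjusted p = 0.0900), the smallest difference of the 5.

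miR-99b-5p, the chromosome 17 member, had 14.2, 85.8, 15.2 and 8.39 CPM in control replicates 1 to 4, against 5.47, 7.89, 5.85 and 3.12 CPM in EtOH replicates 1 to 4. Control replicate 2 was far above the rest, and the other 3 controls were close to the EtOH range. The means were 30.9 ± 36.7 and 5.58 ± 1.96 CPM (SD, n = 4 each; log2 fold change -2.47, SE 0.69, edgeR adjusted p = 0.0541). Without control replicate 2 the control mean was 12.6 ± 3.67 CPM (SD, n = 3), 2.25-fold above the EtOH mean in place of 5.53-fold.

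miR-100-5p was the rarest member, with 9.72, 41.0, 6.06 and 6.40 CPM in control replicates 1 to 4, against 3.23, 3.81, 3.81 and 2.25 CPM in EtOH replicates 1 to 4. Its lowest library, EtOH replicate 4, held 13 counts (exact 95% Poisson interval 6.92 to 22.2, for counting error only). Again control replicate 2 stood apart and the remaining controls lay within a narrow range above the EtOH libraries. The means were 15.8 ± 16.9 and 3.28 ± 0.735 CPM (SD, n = 4 each; log2 fold change -2.26, SE 0.62, edgeR adjusted p = 0.0541). The control mean without replicate 2 was 7.39 ± 2.02 CPM (SD, n = 3), 2.26-fold above the EtOH mean in place of 4.82-fold.

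**Figure D1:**
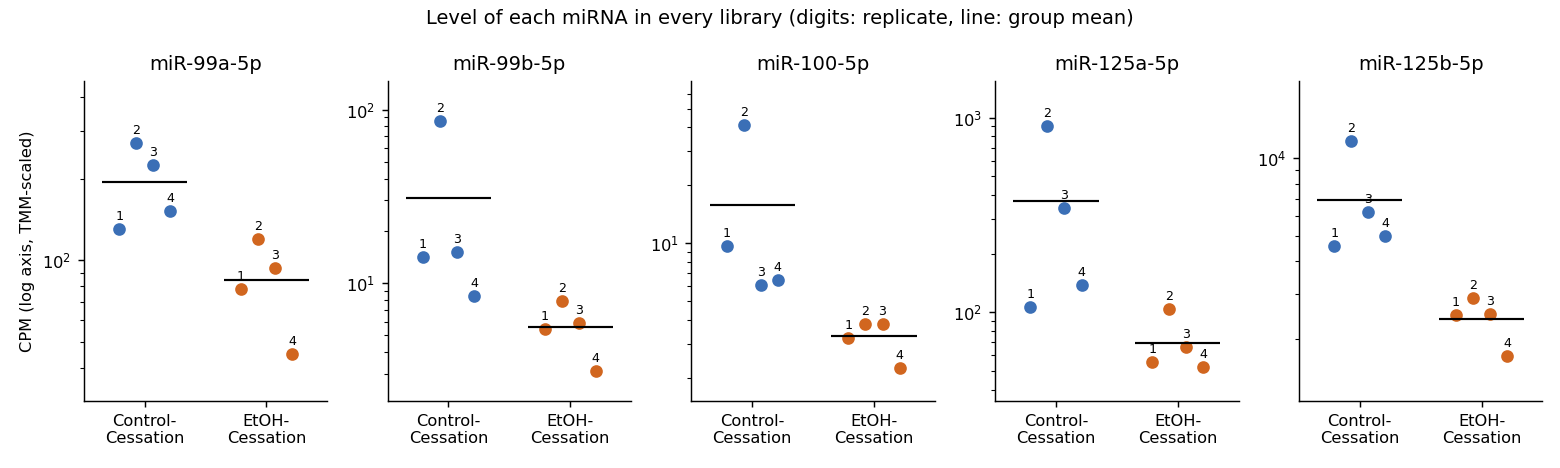
Level of each of the 5 miRNAs in CPM (log axis, scale set per panel) in every library, with the replicate number above each point and a line at the group mean. In all 5 panels control replicate 2 is the highest library, from 41.0 CPM for miR-100-5p to 11707 CPM for miR-125b-5p, and the 4 EtOH libraries lie below the 4 controls.

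The separation of the groups depended on the scale. With TMM scaling every EtOH library lay below every control for 5 of 5 miRNAs, against 7.81% of all tested features and 48.7% of the tested miRNA features. With CPM by the plain library total this held for 2 of 5, miR-100-5p and miR-125b-5p, against 4.08% of all tested features. On that scale EtOH replicate 2 had 141 CPM of miR-99a-5p, 9.31 of miR-99b-5p and 122 of miR-125a-5p, above the lowest controls at 125.8, 7.97 and 103. With median-of-ratios size factors it again held for 2 of 5, and with the piRNA cluster total of each library as the scale for 0 of 5. The share of all tested features was not computed on these last scales, so those counts have no background beside them. Over all tested features the median fold change (log2) was -0.09 with TMM, -0.001 with median-of-ratios factors, 0.14 with library totals and 0.15 with piRNA cluster totals. The fitted fold changes of all 5 stayed below 0 on each of these scales, and none passed the adjusted edgeR threshold on any of them (adjusted p = 0.0525 to 0.418 over the 4 scales).

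The 5 miRNAs were next compared with the miRNA pool, whose share of the libraries was itself lower with EtOH. Fitted and scaled within miRNA features alone, 3 of the 5 had log2 fold changes below 0, miR-125a-5p at -0.65, miR-99b-5p at -0.64 and miR-100-5p at -0.53, and 2 above 0, miR-99a-5p at 0.30 and miR-125b-5p at 0.051. None passed in that fit (edgeR adjusted p = 0.769 to 0.981), so no difference from the rest of the miRNA pool was detectable. In the fit over all features miR-125b-5p lay 0.038 above the median of the miRNA features and miR-99a-5p 0.35 above it, while miR-100-5p, miR-125a-5p and miR-99b-5p lay at -0.70, -0.87 and -0.91 from it. Of 199 tested features with mature names, 14 had a lower fold change than miR-99b-5p, 15 than miR-125a-5p and 24 than miR-100-5p, against 121 for miR-125b-5p and 151 for miR-99a-5p.

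**Figure D2:**
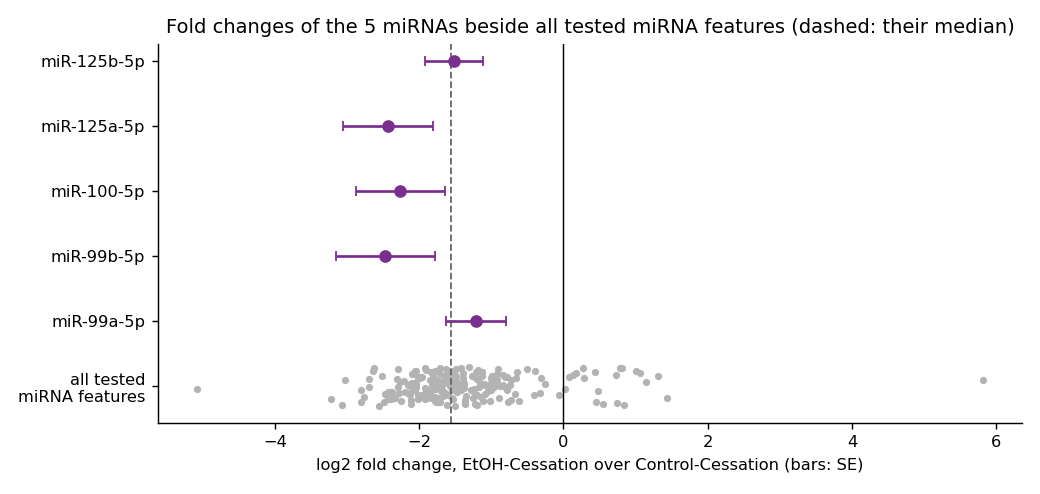
Log2 fold change of EtOH-Cessation over Control-Cessation for the 5 miRNAs (points with SE bars) and for the 228 tested miRNA features (grey points, spread vertically for visibility), with a dashed line at the miRNA median of -1.56. miR-125b-5p (-1.52) lies near the dashed line and miR-99a-5p (-1.21) lies 0.35 to the right of it. miR-100-5p, miR-125a-5p and miR-99b-5p lie between -2.26 and -2.47.

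As a share of mature miRNA counts, neither family differed between groups by more than the spread between libraries. The miR-125 family took 2.45%, 3.95%, 3.38% and 2.95% of mature miRNA counts in control replicates 1 to 4, against 2.82%, 5.14%, 2.76% and 2.60% in EtOH replicates 1 to 4. EtOH replicate 2 was the highest of the 8 and the other 3 EtOH libraries fell inside the control range, and the group means were 3.18% ± 0.635 and 3.33% ± 1.21 (SD, n = 4 each). The miR-99/100 family took 0.0806%, 0.124%, 0.127% and 0.0951% in control replicates 1 to 4, against 0.0970%, 0.225%, 0.110% and 0.0738% in EtOH replicates 1 to 4, with means of 0.107% ± 0.0226 and 0.127% ± 0.0675 (SD, n = 4 each). EtOH replicate 2 was again the highest and EtOH replicate 4 the lowest. The total behind the shares of control replicate 2 lacks let-7c-5p and let-7a-5p, which are at 0 in that library. Other totals lack miRNAs too, as miR-142a-5p is at 0 in EtOH replicates 1 and 2. The EtOH minus control difference was 0.147 percentage points for miR-125 and 0.0199 for miR-99/100. Without features with such isolated zeros in the total it was 0.282 and 0.0279. With 1 library left out it ran from -0.456 to 0.402 and from -0.0130 to 0.0375, so its sign depended on single libraries.

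**Figure D3:**
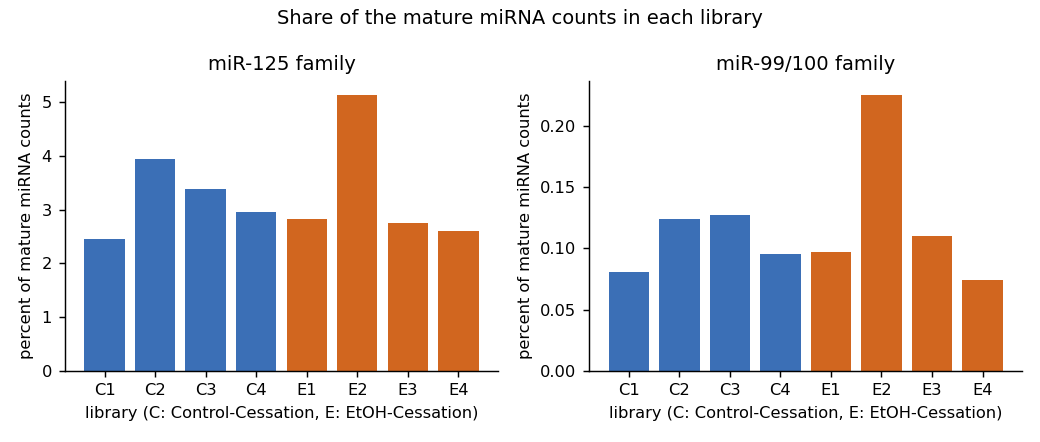
Percent of mature miRNA counts taken by the miR-125 family (left) and the miR-99/100 family (right) in each library, with bars from 0, controls in blue and EtOH libraries in orange. EtOH replicate 2 (E2) has the tallest bar in both panels, at 5.14% and 0.225%, and the other EtOH libraries are close to the controls.

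Within each family the most abundant member set the total. miR-125b-5p made up 95.7% ± 2.31 of the miR-125 counts in controls and 97.2% ± 0.535 in EtOH libraries, and miR-99a-5p 83.7% ± 11.0 and 90.3% ± 0.758 of the miR-99/100 counts (SD, n = 4 each). In control replicate 2 the minor members took more, with miR-99b-5p at 21.6% and miR-100-5p at 10.3% of their family, against 5.03% to 9.24% and 2.46% to 6.32% in the other 7 libraries. miR-125a-5p was at 7.19% of its family there, against 2.19% to 5.24% elsewhere.

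Whether the members changed by different amounts was tested with the log2 ratio of 2 members in each library, which is free of library scaling. For the 10 pairs the two-sided exact permutation test over the 70 splits gave p-values of 0.2 to 0.914, and adjusted p-values of 0.612 to 0.914 over the pairs, where the smallest p the design allows is 0.0286. The largest shift was in miR-99a-5p over miR-125a-5p, from -0.48 ± 0.93 in controls to 0.25 ± 0.33 in EtOH libraries (SD, n = 4 each), a difference of 0.73 on the log2 scale (exact permutation p = 0.2, adjusted p = 0.612). In control replicate 2 that ratio was -1.75, and in the other controls -0.61 to 0.29. Without that library the difference was 0.31. The ratio of the most abundant member of each family, miR-99a-5p over miR-125b-5p, had the smallest SD in controls, at -5.10 ± 0.27 and -4.90 ± 0.29 (SD, n = 4 each; exact permutation p = 0.371, adjusted p = 0.612). miR-99a-5p and miR-125b-5p can both come from the chromosome 16 cluster. In EtOH libraries the smallest SD, 0.071, was that of miR-99a-5p over miR-99b-5p, which lie on different chromosomes. The part of clustering in these ratios was not tested.

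**Figure D4:**
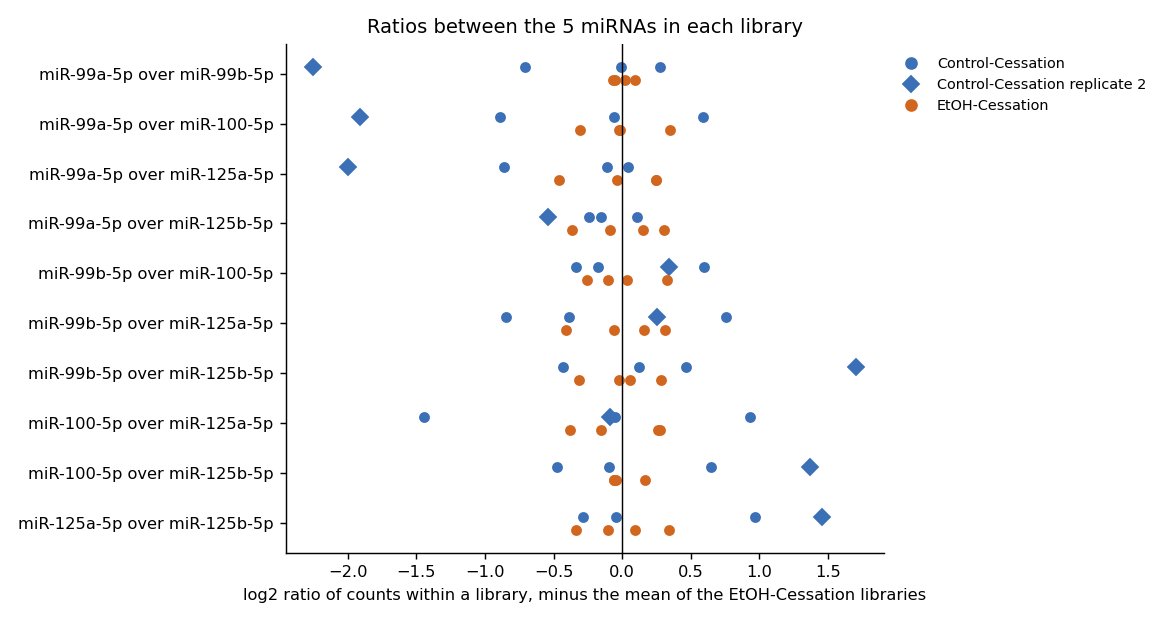
Log2 ratio of counts for the 10 pairs of miRNAs in each library, shown as the distance from the mean of the EtOH libraries, with control replicate 2 as a diamond. The diamond lies at the edge of the points in 7 of the 10 pairs, those that set miR-99a-5p or miR-125b-5p against another member, and inside them in the other 3.

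The members differed most from each other in control replicate 2. Its level over the mean of the other 3 controls was 6.82 for miR-99b-5p, 5.55 for miR-100-5p, 4.63 for miR-125a-5p, 2.22 for miR-125b-5p and 1.60 for miR-99a-5p, where the median of the 199 tested mature miRNAs was 2.03. The first 3 ranked 12, 17 and 24 from the top. Without control replicate 2, the log2 fold changes of the 5 ran from -1.10 to -1.59, in place of -1.21 to -2.47, with a miRNA median of -1.24 (edgeR adjusted p = 0.0966 to 0.164). Muscle miRNAs were far higher in that library than in the other controls. The smooth muscle miRNAs miR-143-3p and miR-145a-5p summed to 38534 CPM in it, against 1812 to 7282 in the other controls and 1321 to 3412 in the EtOH libraries. The striated muscle miRNAs miR-1a-3p and miR-133a-3p, the 2 of 3 listed that had rows, summed to 3909, 343 to 1181 and 133 to 373 CPM in the same order. None of these 4 miRNAs was at 0 in any library, and none passed the adjusted edgeR threshold. The endothelial pair, miR-126a-3p and miR-126a-5p, summed to 96.0 CPM in control replicate 2, 42.2 to 101 in the other controls and 16.6 to 53.9 with EtOH. The epithelial list, 4 of 5 with rows, summed to 2498, 1191 to 4776 and 1065 to 2676 CPM, with miR-141-3p at 0 in 4 libraries, among them the control with the lowest sum. The germ cell list of 10 miRNAs summed to 12788 CPM in that library, 7682 to 10177 in the other controls and 2171 to 5905 in EtOH libraries, with miR-449a-5p at 0 in control replicate 2 and EtOH replicate 4. The red blood cell pair summed to 56.6 to 699 CPM in controls and 24.8 to 59.8 in EtOH libraries, with miR-144-3p at 0 in 4 libraries. The leukocyte list, 4 of 5 with rows, summed to 222 to 328 and 22.0 to 129. Its largest member where present, miR-142a-5p, was at 0 in control replicate 2 and EtOH replicates 1 and 2. The others were highest in control replicate 2, miR-150-5p at 173, miR-223-3p at 49.2 and miR-155-5p at 25.9 CPM. In the other controls they were at 15.2 to 54.7, 11.0 to 16.6 and 5.56 to 11.9 CPM. No member of any of these lists passed in either direction. The part of these cell types in the results on the 5 miRNAs was not tested.

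**Figure D5:**
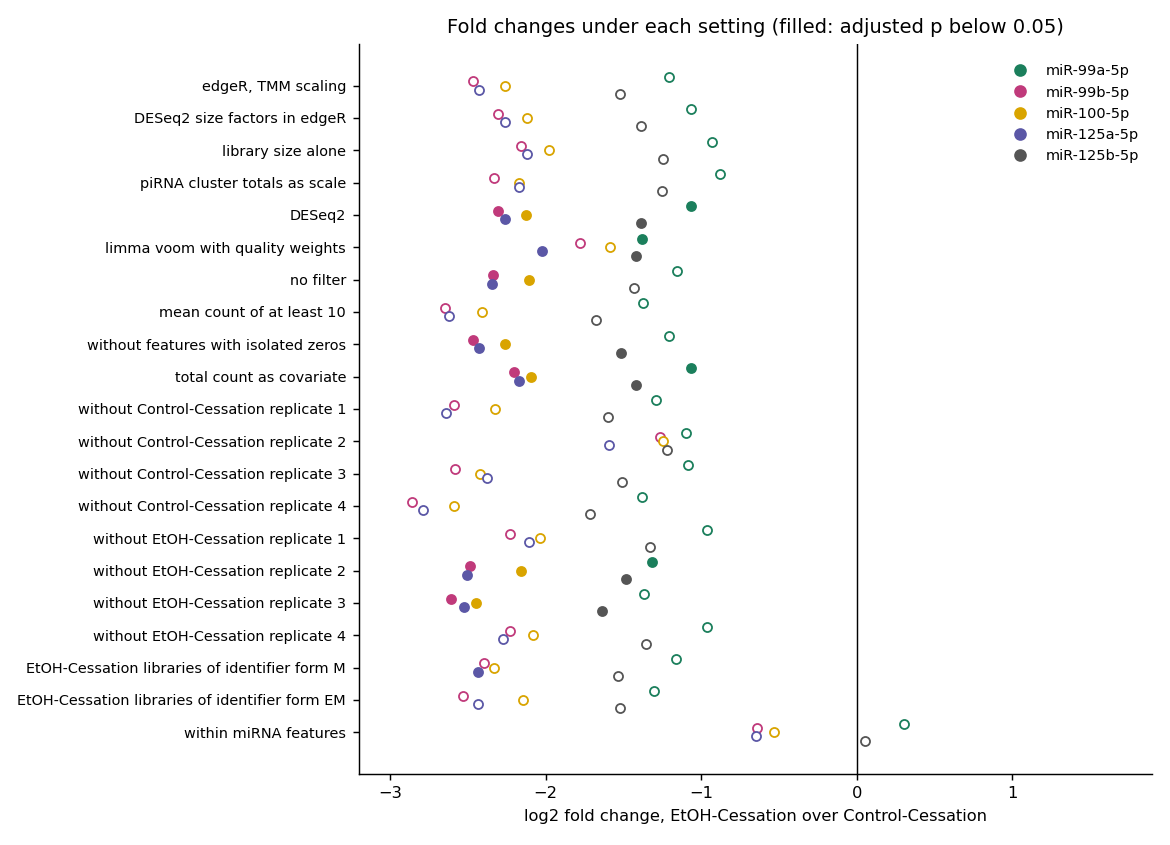
Log2 fold change of each of the 5 miRNAs under the edgeR fit with TMM scaling and 20 other settings, filled where the adjusted p was below 0.05. Without control replicate 2 the 5 points draw together between -1.10 and -1.59, and within miRNA features they lie on both sides of 0.

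The let-7 partner of the compact cluster followed the same pattern. let-7e-5p had 24.9, 233, 29.3 and 19.9 CPM in control replicates 1 to 4, and 13.7, 16.9, 12.3 and 10.9 CPM with EtOH. Control replicate 2 was 9.44 times the mean of the other controls, rank 5 of 199, and the control mean without it was 24.7 ± 4.72 CPM (SD, n = 3), 1.84-fold above the EtOH mean of 13.4 ± 2.56 (SD, n = 4). With all libraries its log2 fold change was -2.51 (SE 0.74, edgeR adjusted p = 0.0606). A high level in control replicate 2 was not particular to this cluster. By the same ratio the smooth muscle miRNAs miR-145a-5p and miR-143-3p ranked 4 and 10, and miR-99b-5p and miR-125a-5p 12 and 24. The let-7 partners of the larger clusters, let-7c-5p and let-7a-5p, stood at 0 in control replicate 2 and at 31924 counts or more in every other control. For that reason no fold is given for them. Both also have copies outside these clusters.

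The 3′ arms of the hairpins, usually degraded after processing, were close to absent. The hairpins of the most abundant miR-99/100 and the less abundant miR-125 member, with the 5′ arm product in capitals, show the strand that was kept (RefSeq, chr16:77598936-77599000 and chr17:17830812-17830879, plus strand).
Mir99a: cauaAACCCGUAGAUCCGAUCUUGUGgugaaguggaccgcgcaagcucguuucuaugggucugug
Mir125a: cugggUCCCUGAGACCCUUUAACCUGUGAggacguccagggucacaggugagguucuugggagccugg

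Over all 8 libraries miR-99a had 5050 counts on the 5′ arm and 5 on the 3′ arm, miR-99b 599 and 8, and miR-125a 7288 and 9. miR-125b had 165867 on the 5′ arm and 33 on the 3′ arms, of which 25 were miR-125b-2-3p, from chromosome 16, and 8 miR-125b-1-3p, from chromosome 9. No 3′ arm had enough counts to be tested. Of 6 opposite arms 5 were analysed, and miR-100-3p was not analysed here. Hairpin rows totalled 3, 8 and 8 counts for mir-99a, mir-125b-1 and mir-125b-2, and those of the other 3 hairpins were not analysed here.

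No tested row of the host genes passed the adjusted edgeR threshold. The counts given here are raw sums per group, not scaled for depth, and the groups differed in depth. Spaca6 introns held 134 such counts in each group, and 0 of 2 tested rows passed (lowest edgeR adjusted p = 0.243, and 0 of 2 at an unadjusted p below 0.05). After scaling, the log2 fold changes of these rows were -0.73 and -0.62. Mir99ahg introns held 227 raw counts in controls and 183 with EtOH, with 0 of 2 tested rows passing (lowest edgeR adjusted p = 0.0669, and 1 at an unadjusted p below 0.05). Their log2 fold changes were -1.36 and -0.44. The introns of 3110039I08Rik held 102 and 136 raw counts and none was tested, so no direction is read from these sums.

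Genes described as targets were thinly covered. Of 9 genes listed for miR-99/100, 2 had tested exon rows, and of 16 listed for miR-125, 3 did. None of these 5 exon rows passed the adjusted edgeR threshold, and 2 were higher at an unadjusted p below 0.05, where 36.8% of all 4600 tested exon rows were. An exon of Igf1r, the receptor of insulin-like growth factor 1, was at 6.32 ± 2.30 CPM in controls and 15.3 ± 9.12 CPM with EtOH (n = 4, SD; edgeR adjusted p = 0.114). An exon of Erbb2, a receptor tyrosine kinase, was at 1.82 ± 0.915 CPM and 7.08 ± 6.33 CPM (n = 4, SD; edgeR adjusted p = 0.0750). An exon of Stat3, a transcription factor of cytokine signalling, was at 4.36 ± 1.72 CPM and 8.003 ± 3.54 CPM (n = 4, SD; edgeR adjusted p = 0.239). In these 3 exons EtOH replicate 2, which also had the highest levels of Crisp1, Adam7 and Cd52, was the highest library. The remaining tested miR-125 target exon, of the kinase gene Map2k7, was at 4.19 ± 1.93 CPM in controls and 3.57 ± 1.199 CPM with EtOH (n = 4, SD; edgeR adjusted p = 0.816). Of 4 tested intron rows of the miR-99/100 list none passed or was below an unadjusted p of 0.05, and the named introns of Rptor, an mTOR partner, and Igf1r had log2 fold changes of -0.37 and -0.38 (edgeR adjusted p = 0.613 and 0.645). Lin28a, the best-known miR-125 target, had 1 exon count in each group. Lin28b, its paralog, had 4, 6, 13 and 7 exon counts in control replicates 1 to 4, and 4, 3, 4 and 1 with EtOH. It was not tested.

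Of 16 genes of miRNA processing and silencing, 7 had tested exon rows. Of these 13 rows 0 passed the adjusted edgeR threshold. At an unadjusted edgeR p below 0.05, 1 was higher, where 36.8% of all 4600 tested exon rows were. The median log2 fold change of the 13 rows was -0.09, beside 0.70 over all exon rows. The 1 higher row was an exon of Ago1, an Argonaute protein, at 1.76 ± 1.14 CPM in controls and 4.35 ± 2.07 CPM with EtOH (n = 4, SD; edgeR adjusted p = 0.137). An intron of Tnrc6c was at 4.17 ± 1.72 and 11.0 ± 9.53 CPM and an exon of Tnrc6b at 6.29 ± 1.47 and 10.2 ± 4.72 CPM (n = 4, SD; edgeR adjusted p = 0.163 and 0.331), both encoding Argonaute-binding silencing proteins. Summed over exons, Ago2, the Argonaute with slicer activity, was at 317 ± 53.2 CPM in controls and 297 ± 148 CPM with EtOH (n = 4, SD), a difference smaller than the SD of either group.

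The tested miRNAs whose pattern over the 8 libraries was most like that of each member were found by the root mean square difference of log2(CPM + 1) after centring, among 198 others. For miR-99b-5p the nearest was its cluster neighbour let-7e-5p, at 0.25, against a median of 0.87 over all, followed by miR-497a-5p at 0.29 and miR-100-5p at 0.30. For miR-100-5p it was miR-223-3p at 0.20, ahead of miR-497a-5p at 0.29 and miR-99b-5p at 0.30 (median 0.70). miR-125a-5p had no neighbour as close, with miR-181a-5p at 0.39, miR-24-3p at 0.42 and miR-99b-5p at 0.46 (median 0.97). miR-125b-5p was nearest to miR-107-3p at 0.17, miR-1839-5p at 0.25 and miR-135a-5p at 0.25 (median 0.59). miR-99a-5p was nearest to miR-1839-5p at 0.25, miR-125b-5p at 0.26 and miR-210-3p at 0.28 (median 0.73). miR-99b-5p and miR-100-5p, which share a seed, were in each other's list, and miR-99a-5p had miR-125b-5p, of the other seed, in its list. These distances describe 8 libraries that share their depth and RNA makeup.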

How the data were processed

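Small RNA was sequenced from 8 sperm libraries. The extraction used guanidinium thiocyanate with a reducing agent and the analysis only read 1, per the labels. Per the submitters' processing notes, cutadapt was used. The deposited values are raw counts per feature. Aligner, build, annotation and multi-mapping rule: not given in the sources used here. Columns were matched to samples by title, and replicates are numbered in accession order.

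All rows were fitted together with edgeR 4.0.16 in R 4.3.3 (filterByExpr defaults, minimum count 10 and minimum total 15, TMM scaling, quasi-likelihood F test, Benjamini-Hochberg adjustment over 10234 features, threshold 0.05). The SE of a log2 fold change was its size over the square root of F. DESeq2 1.42.0 and limma 3.58.1 (voom with quality weights) were alternatives. Ratios between members were tested by exact permutation (scipy 1.17.1). The likeness measure used a pseudocount of 1 CPM. Scaling, filter, test, covariate and left-out libraries were varied as alternatives. The labels name no molecular tags, so intervals cover counting error only.

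The members, lists and rules for named genes were chosen with earlier results of these data known. Named were the 5 members, their opposite arms, hairpins, cluster let-7 miRNAs and seed sharers, the 3 most alike miRNAs per member and up to 3 list genes with the lowest p. The host genes, Lin28a, Lin28b and Ago2 were added later, the last 3 after their values were seen.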

Additional observations from a re-analysis of the deposited data

Results flagged for a closer look

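Of 34 sets of 4 values examined (5 levels, 2 family shares and 10 ratios in each group), 4 had 1 library far from the other 3, where chance flags about 1 in 20. miR-99b-5p had 85.8 CPM in control replicate 2 and 8.39 to 15.2 in the other controls. miR-100-5p had 41.0 CPM in control replicate 2 and 6.06 to 9.72 in the others. The miR-125 family took 5.14% of mature miRNA counts in EtOH replicate 2, where the other 3 EtOH libraries had 2.60% to 2.82%. The log2 ratio of miR-100-5p over miR-125b-5p was -9.36 in EtOH replicate 3, where the other 3 lay at -9.58 to -9.57, a gap that is large only beside the narrow spread of those 3, and miR-100-5p had 13 to 28 counts in these libraries.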

How the results depend on the processing

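No paired analysis was possible because the labels give no replicate numbers. Over the 20 alternatives the fold changes of miR-99b-5p, miR-100-5p and miR-125a-5p kept their sign. Those of miR-99a-5p and miR-125b-5p did too, except within miRNA features, where they were 0.30 and 0.051. The cause of each other change was not tested. Of the 5 miRNAs, 5 passed the adjusted threshold with DESeq2 and with the total count as a covariate, 4 without features with isolated zeros, 3 with limma voom and with no filter, and 1 with only the 2 EtOH libraries whose identifier has the form M (the other 2 have the form EM). Features called lower numbered 404 of 9983 with DESeq2, 1038 of 10234 with the covariate and 154 of 10073 without isolated zeros. They numbered 239 of 10234 with limma voom, 176 of 867194 with no filter and 366 of 13606 with form M. Among miRNA features, in that order, they were 117 of 228, 140 of 228 and 71 of 199, then 74 of 228, 28 of 948 and 102 of 263. Leaving out 1 library gave 0 to 5 of the 5 miRNAs, with 5 without EtOH replicate 2, 4 without EtOH replicate 3 and 0 otherwise. Without EtOH replicate 2, 212 of 11608 features and 73 of 249 miRNA features were called lower. Without EtOH replicate 3 it was 420 of 11584 and 139 of 239. The log2 fold changes that passed, in the order miR-99a-5p, miR-99b-5p, miR-100-5p, miR-125a-5p and miR-125b-5p, were -1.06, -2.31, -2.13, -2.26 and -1.39 with DESeq2 and -1.06, -2.21, -2.09, -2.17 and -1.42 with the covariate. With limma voom they were -1.38, -2.03 and -1.42 for miR-99a-5p, miR-125a-5p and miR-125b-5p, with no filter -2.34, -2.10 and -2.34 for miR-99b-5p, miR-100-5p and miR-125a-5p, without isolated zeros -2.47, -2.26, -2.43 and -1.52 for all but miR-99a-5p, and with form M -2.43 for miR-125a-5p. With 1 library left out they ran from -1.38 to -0.96, -2.86 to -1.26, -2.59 to -1.25, -2.79 to -1.59 and -1.71 to -1.22. The weakest values of miR-99b-5p, miR-100-5p, miR-125a-5p and miR-125b-5p came without control replicate 2.

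Over all features, the number past the threshold in either direction was 19 in the reported fit. It was 9 with median-of-ratios factors, 818 with library totals, 1 with piRNA cluster totals, 1747 with DESeq2, 655 with limma voom, 1642 with no filter, 11 with a mean count of at least 10, 1 within miRNA features, 3209 with the covariate, 591 without isolated zeros, 2572 with form M and 3 to 2332 with 1 library left out (3 without EtOH replicate 4, 2332 without EtOH replicate 3). The number of miRNAs with separate groups was 2 with library totals, 2 with median-of-ratios factors and 0 with piRNA cluster totals, scales added for this count after the data were seen. Of these scales only library totals had a background share computed, 4.08% of all tested features.

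Of the 10 ratios, 3 changed sign, all near 0 and none past the threshold. miR-99b-5p over miR-100-5p (-0.11) was 0.057 without control replicate 3 and 0.074 with form M, and ran from -0.25 to 0.057 with 1 library left out. miR-99b-5p over miR-125a-5p (0.056) was -0.21 without control replicate 3, -0.054 without control replicate 4, -0.047 without EtOH replicate 1 and -0.070 with the EtOH libraries of form EM, and ran from -0.21 to 0.33. miR-100-5p over miR-125a-5p (0.16) was -0.26 without control replicate 3 and ran from -0.26 to 0.53. Counts of 13 to 60 outside control replicate 2 limit the precision of miR-99b-5p and miR-100-5p.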
